A study of Mus musculus with 15 samples.

Results

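A set of 10 genes of brain endothelial cells and the blood-brain barrier was followed in whole-brain RNA of mice with free access to food (ad libitum, AL) or with 24 h of food and 24 h without in turn (every-other-day feeding, EOD). The genes were chosen by name with earlier results of these data known, though no measured value entered the rule. They were Cldn5, Slc2a1, Abcb1a, Mfsd2a, Pecam1, Tek, Flt1, Vwf, Vcam1 and Ly6a. These are 10 of the 43629 genes listed in the count files, and all 10 were among the 15864 genes that passed the filter on low counts. All 15 mice were male, wildtype C57BL/6J mice, and each gave 1 library. The groups were 4 young AL mice (3 months), 3 young EOD mice (3 months), 4 old AL mice (24 months) and 4 old EOD mice (24 months), with EOD feeding started at 2 months of age. The labels call the EOD mice IF, for intermittent fasting. All mice came from 1 cohort of a commercial supplier, and the labels name no litter or cage. Mice were caged in groups when the study began and may share a cage here. The p-values measure the spread between individual mice and take no account of shared cages.

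Endothelial cells line all blood vessels, and in the brain they form the blood-brain barrier. They do so by sealing the clefts between neighbouring cells with tight junctions, by suppressing transport in vesicles, and by carrying nutrients in and drugs out through dedicated transporters. The genes studied here cover these functions. Cldn5 encodes the main claudin of endothelial tight junctions. Slc2a1 encodes the glucose transporter GLUT1, Abcb1a the drug efflux pump P-glycoprotein, and Mfsd2a a lipid transporter that also restrains vesicle transport. Pecam1 encodes an adhesion molecule of endothelial cell contacts, and Vcam1 a receptor that binds leukocytes on activated endothelium. Tek encodes TIE2, the receptor for angiopoietins, and Flt1 encodes VEGFR1, a receptor for vascular endothelial growth factors. Vwf encodes von Willebrand factor, a large glycoprotein that is stored in endothelial cells and platelets and tethers platelets to injured vessels. Ly6a encodes the surface antigen Sca-1, which is also found on endothelial cells of the mouse brain.

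Of these genes, Vwf was the one that passed the test with age. Its level rose 1.83-fold from young to old AL mice, and every old AL mouse was above every young AL mouse. In EOD mice the log2 age difference in Vwf was 0.16 (95% interval -0.17 to 0.49) and did not pass the test. The difference between the age differences of AL and EOD mice did not pass either. Ly6a was also higher in each old AL mouse than in each young AL mouse, but fell short of the threshold, and the other 8 genes overlapped between all groups of young and old mice. No gene passed the test for a diet difference.

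Facts of the libraries that touch these values came first. Total counts ranged from 5198748 to 13610729 per mouse. The third young AL mouse stood apart: it had the largest total but the fewest detected genes, 17280 against 19054 to 20880, and its median correlation with the other libraries was 0.957 against 0.980 to 0.987. It is therefore left out in a second fit of 14 mice, which is given where it matters. The fourth old AL mouse carried pituitary RNA, with a summed level of 6 pituitary genes of 1039 CPM (counts scaled to the library size) against 0.719 to 18.2 CPM in the other mice. The third old AL mouse had the lowest total, 5198748 counts, and the highest level among all 15 mice for 6 of the 10 genes, namely Cldn5, Slc2a1, Flt1, Vwf, Vcam1 and Ly6a. Fewer endothelial cells and less RNA per endothelial cell cannot be told apart in such bulk tissue.

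The 10 genes were of moderate abundance in whole brain. Counts per mouse ranged from 71 for Cldn5 in the second young EOD mouse to 1309 for Slc2a1 in the fourth old AL mouse. To compare levels between genes, counts were divided by the length of all annotated exons of each gene, giving RPKM values. This length, 16064 bases for Vwf and 1414 for Cldn5, can exceed that of the transcripts present, which lowers the RPKM value. The order between genes is therefore approximate. Slc2a1 was the most abundant at 33.6 ± 4.96 RPKM (SD, n = 15 mice). It was followed by Ly6a at 20.9 ± 4.46, Vcam1 at 13 ± 1.72 and Cldn5 at 12.3 ± 2.92 RPKM. Mfsd2a at 8.47 ± 1.83, Abcb1a at 7.68 ± 0.788 and Flt1 at 5.66 ± 0.660 RPKM were intermediate. Pecam1 at 3.72 ± 0.440, Tek at 3.58 ± 0.539 and Vwf at 1.13 ± 0.317 RPKM were the lowest.

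Several neighbours in this order changed places from mouse to mouse. The order of Vcam1 and Cldn5 was turned in 7 of 15 mice, that of Pecam1 and Tek in 6, that of Mfsd2a and Abcb1a in 5 and that of Cldn5 and Mfsd2a in 3. The remaining neighbours kept their order in each of the 15 mice. The spread between mice differed between genes as well, from a coefficient of variation of 10.3% for Abcb1a to 28.1% for Vwf.

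**Figure D1:**
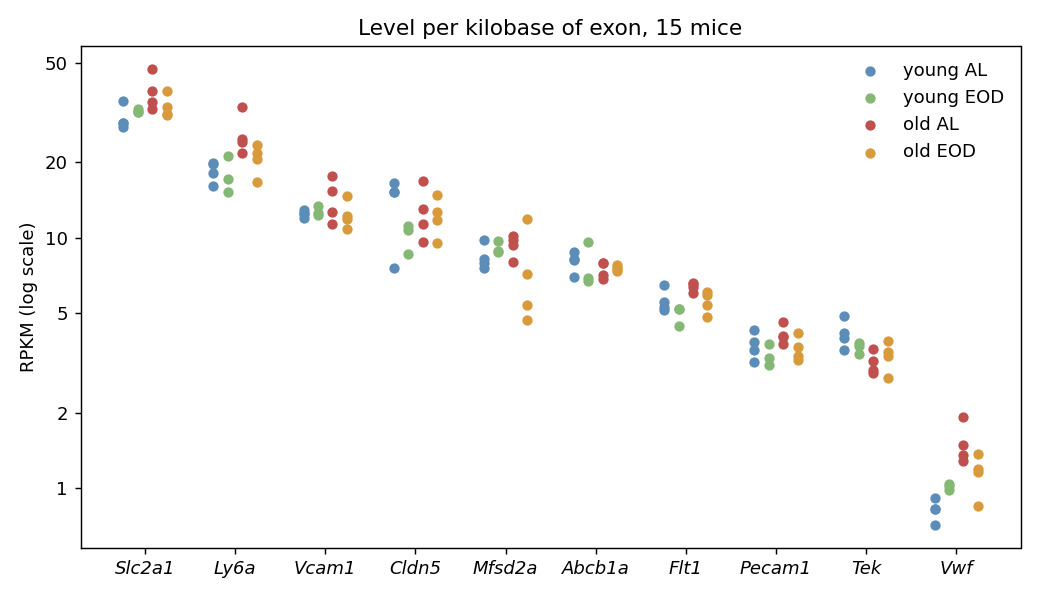
Level of each gene per kilobase of exon (RPKM, log axis) in each of the 15 mice, coloured by group and ordered by the mean. Slc2a1 lay at the top (33.6 RPKM on average) and Vwf at the bottom (1.13 RPKM), and Vwf showed the largest relative spread.

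Vwf lies on chromosome 6 (GRCm38, 125546774 to 125686679, plus strand) and its exons span 16064 bases in the annotation used for counting. In young AL mice it was measured at 13.3, 11.5, 14.7 and 13.3 CPM, and in young EOD mice at 16.7, 15.8 and 16.4 CPM. In old AL mice it was measured at 20.6, 21.8, 30.8 and 23.8 CPM, and in old EOD mice at 19.2, 22, 13.6 and 18.6 CPM. The old AL mice were thus all above the young AL mice, whereas the old EOD mice ranged from within the values of young AL mice to within those of old AL mice. Young AL mice averaged 13.2 ± 1.31 CPM (SD, n = 4) and old AL mice 24.3 ± 4.57 CPM (SD, n = 4). This was a log2 fold change of 0.87 (SE 0.146, 95% interval 0.57 to 1.17, adjusted p = 0.00282, quasi-likelihood test in edgeR, Benjamini-Hochberg adjusted over 15864 genes).

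With a threshold of FDR 0.1, Vwf was 1 of 10 genes called for age in AL mice, where 1.09% of all genes tested were called and 0.946% were called as higher. On 14 mice the value was 0.93 (adjusted p = 0.00243), again 1 of 10 genes, against 1.03% of all genes. Leaving out the third old AL mouse, the highest for Vwf, gave 0.75 (adjusted p = 0.0150), and leaving out the fourth, with pituitary RNA, gave 0.88 (adjusted p = 0.00780).

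Each of the 3 sequencing lanes named in the file headers held only 1 or 2 mice of each of these groups. Vwf was higher in old than in young AL mice within every lane, which had to follow since these groups did not overlap. The log2 difference was 0.73 in lane 1, 0.81 in lane 2 and 0.83 in lane 3. With lane as a covariate, the log2 fold change was 0.83 (adjusted p = 0.00622).

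**Figure D2:**
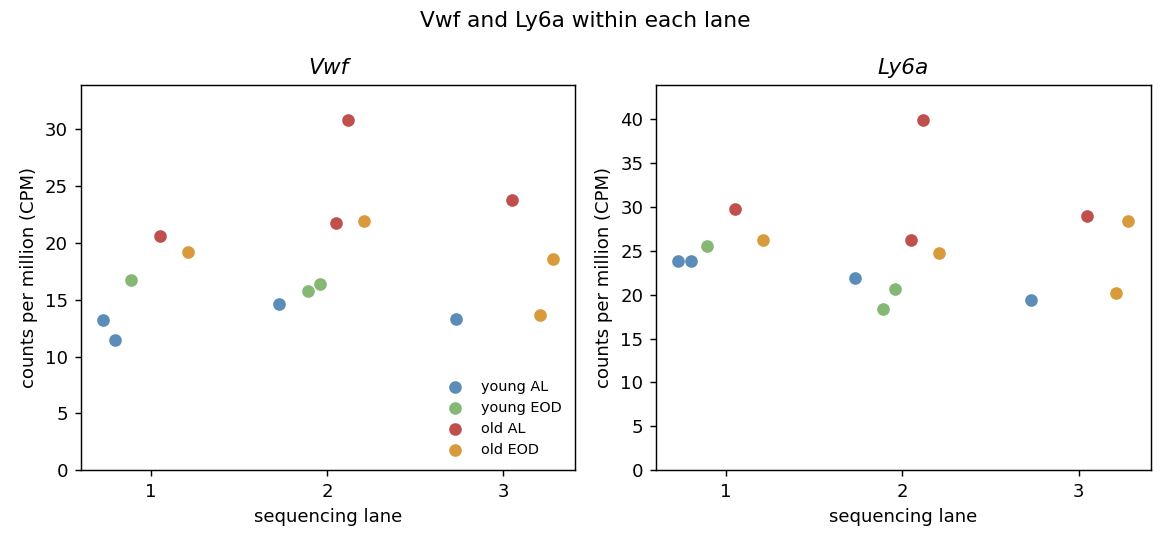
CPM of Vwf and Ly6a in every mouse, separated by sequencing lane and coloured by group. In each lane the old AL mice lay above the young AL mice for both genes, which follows from the lack of overlap between these groups. Lane 3 held no young EOD mouse.

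In EOD mice Vwf was 16.3 ± 0.467 CPM (n = 3) at the young and 18.3 ± 3.47 CPM (n = 4) at the old age, a log2 difference of 0.16 (SE 0.159, 95% interval -0.17 to 0.49, adjusted p = 0.991). None of the 10 genes was called for age in EOD mice by edgeR, where 0.29% of all genes were called, or 0.484% on 14 mice. DESeq2 called none either. In EOD mice none of the 10 had an unadjusted p under 0.05 in edgeR, against 911 of all 15864 genes. For age in AL mice 4 of 10 had one, 3 higher and 1 lower, against 1511 of all genes. Averaged over diets 5 of 10 had one, 4 higher and 1 lower, against 1856 of all genes. Averaged over both diets, Vwf rose by 0.51 on the log2 scale (SE 0.108, adjusted p = 0.0139). It was 1 of 10 genes called in that comparison, where 2.3% of all genes were called and 1.62% as higher. On 14 mice it was again 1 of 10, with a log2 difference of 0.55 (adjusted p = 0.00771), against 2.56% of all genes.

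The age difference of Vwf was smaller in EOD than in AL mice by 0.71 on the log2 scale (SE 0.215, 95% interval of the difference -1.15 to -0.26). This difference had an unadjusted p of 0.00357, rank 27 among 15864 genes, but an adjusted p of 1.0 in edgeR's test. It therefore did not hold after adjustment, in a comparison in which 0% of all genes were called. At the young age, EOD mice had 0.31 more Vwf than young AL mice on the log2 scale (SE 0.161, unadjusted p = 0.0680). At the old age, EOD mice had 0.40 less than AL mice (SE 0.143, unadjusted p = 0.0113). All 3 young EOD mice lay above all 4 young AL mice for Vwf, where 4.45% of all genes did not overlap between these groups in either direction. For neither diet difference did Vwf pass the adjusted test, with adjusted p-values of 0.996 and 1.0 in edgeR.

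Ly6a lies on chromosome 15 (74994877 to 74998031, minus strand). It was measured at 23.9, 23.8, 21.9 and 19.4 CPM in young AL mice, at 25.6, 18.4 and 20.6 CPM in young EOD mice, at 29.7, 26.2, 39.9 and 29.0 CPM in old AL mice, and at 26.2, 24.8, 20.2 and 28.4 CPM in old EOD mice. Again the third old AL mouse was the highest and all old AL mice were above all young AL mice, while the old EOD mice overlapped with both young groups. The log2 difference with age in AL mice was 0.48 (SE 0.137, 95% interval 0.19 to 0.76), which missed the threshold (adjusted p = 0.145, edgeR). Without the third old AL mouse it was 0.35 (adjusted p = 0.549). Averaged over diets it was 0.34 (SE 0.102, adjusted p = 0.128). DESeq2 called Ly6a in both comparisons, with adjusted p-values of 0.0814 and 0.0759.

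Vwf and Ly6a were the 2 of 10 genes without overlap between young and old AL mice, whereas 4.56% of all genes tested (723 genes) did not overlap in either direction. Between all young and all old mice, none of the 10 genes was free of overlap, against 0.901% of all genes. Within lanes the log2 difference of Ly6a in AL mice was 0.32, 0.56 and 0.57. The age difference of Ly6a in EOD mice was 0.20 (95% interval -0.12 to 0.51), and the difference between both age differences was -0.28 (SE 0.204, unadjusted p = 0.180).

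Reads of 2 of the 10 genes can be shared with a close relative, and the sequences below show how alike the coding parts are. A read of 50 bases was taken as the unit, and each window of that length in the annotated transcripts of a gene (GENCODE vM21) was looked up in the transcripts of all other genes. For Ly6a, 19.0% of windows also occurred in another gene, with Ly6c1 first by number of windows. For Abcb1a 17.6% occurred in Abcb1b or Abcb4. For the other 8 genes the share was 0% to 0.998%. The longest coding stretch that Ly6a shares with Ly6c1 is 45 bases, given here in capitals with the 20 bases on each side, from base 17 to base 101 of either coding sequence (GRCm38, minus strand, chr15:74996538-74997588 for Ly6a and chr15:75047439-75048495 for Ly6c1, over 2 exons each). This run is shorter than a 50-base read. Over the whole coding sequence of Ly6a, 51 of 353 windows also occurred in another gene. Which gene held these windows was not recorded.
Ly6a: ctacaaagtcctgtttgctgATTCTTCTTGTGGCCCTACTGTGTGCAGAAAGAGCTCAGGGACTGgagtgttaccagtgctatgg
Ly6c1: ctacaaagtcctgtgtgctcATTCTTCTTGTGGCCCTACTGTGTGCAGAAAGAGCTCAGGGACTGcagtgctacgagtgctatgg

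The shared stretch of Abcb1a and Abcb1b is longer, 338 coding bases without a difference. A 50-base read that lies wholly inside it cannot be placed, and reads with a mapping quality under 5 were not counted. Its last 50 bases are in capitals below, followed by the 20 bases after it, where the sequences part (GRCm38, plus strand, chr5:8702895-8713187 for Abcb1a and chr5:8825215-8825551 for Abcb1b, over 2 exons each).
Abcb1a: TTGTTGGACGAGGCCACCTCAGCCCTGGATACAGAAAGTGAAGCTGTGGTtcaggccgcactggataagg
Abcb1b: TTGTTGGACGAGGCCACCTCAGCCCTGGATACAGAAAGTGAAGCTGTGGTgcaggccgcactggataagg

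The relatives differed in abundance. Ly6c1, another endothelial surface antigen of the Ly6 family, was as high as Ly6a, with 23.1 ± 2.37 CPM in young AL and 29.0 ± 5.31 CPM in old AL mice, a log2 difference of 0.32 (SE 0.141, adjusted p = 0.473, edgeR). Abcb1b had only 4.16 ± 2.0 CPM in young AL and 3.23 ± 0.925 CPM in old AL mice, against 44.0 ± 4.28 and 40.7 ± 3.04 CPM for Abcb1a. How far shared reads affected the values of Ly6a and Ly6c1 was not tested.

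The junction gene Cldn5 (chromosome 16, 18776847 to 18778260, plus strand) depended on a single library. In young AL mice it was measured at 21.5, 21.5, 10.7 and 23.4 CPM, where 10.7 is the third mouse. Young EOD mice had 15.8, 12.2 and 15.1 CPM, old AL mice 13.6, 16.0, 23.8 and 18.4 CPM, and old EOD mice 20.9, 17.9, 13.4 and 16.6 CPM. The 3 young EOD mice thus lay between the third young AL mouse and the other young AL mice.

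With all mice, Cldn5 in young EOD mice differed from that in young AL mice by -0.40 on the log2 scale (95% interval -0.88 to 0.07, adjusted p = 0.996, edgeR). Without the third young AL mouse this became -0.61 (SE 0.175, unadjusted p = 0.00233), which again did not pass after adjustment (adjusted p = 1.0). The age difference in AL mice moved likewise from -0.11 (SE 0.206) to -0.32 (SE 0.159, adjusted p = 0.735), and the average over diets changed its sign from 0.07 to -0.03.

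Of the transporters, Slc2a1 (chromosome 4, 119108711 to 119137330, plus strand) had the largest age difference in AL mice. It was measured at 81.9, 79, 82.0 and 100.2 CPM in young AL mice and at 93.5, 90.4 and 90.8 CPM in young EOD mice. Old AL mice had 92.8, 99.3, 134.9 and 110.0 CPM, and old EOD mice 88.7, 95, 88.4 and 110.0 CPM. The highest young AL mouse, the fourth, lay within the old AL mice, and 3 of 4 young AL mice lay below all of them. The log2 difference in AL mice was 0.34 (SE 0.105, 95% interval 0.13 to 0.56, adjusted p = 0.194, edgeR), and it did not pass the threshold. Without the fourth young AL mouse it was 0.44 and passed (adjusted p = 0.0608). Without the third old AL mouse it was 0.23 (adjusted p = 0.624). In EOD mice the age difference was 0.06 (95% interval -0.18 to 0.30).

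Abcb1a (chromosome 5, 8660077 to 8748575, plus strand) hardly varied. Its group means were 44.0 ± 4.28 CPM in young AL, 42.4 ± 8.72 in young EOD, 40.7 ± 3.04 in old AL and 41.4 ± 0.974 CPM in old EOD mice. The spread of young EOD mice came from the second mouse at 52.4 CPM beside 36.9 and 37.8 CPM. The age difference in AL mice was -0.11 with a 95% interval of -0.33 to 0.12, and the diet difference in old mice was 0.02 with an interval of -0.20 to 0.24 on the log2 scale.

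Mfsd2a (chromosome 4, 122946850 to 122961188, minus strand) was even in 3 groups and scattered in the fourth. It ranged from 17.0 to 21.9 CPM in young AL, from 19.7 to 21.8 CPM in young EOD and from 18 to 22.8 CPM in old AL mice. Old EOD mice had 10.6, 16.2, 12.1 and 26.6 CPM, which held the lowest and the highest of all 15 values. The diet difference in old mice was -0.36 (SE 0.199, 95% interval -0.77 to 0.05, adjusted p = 1.0, edgeR), and 3 of 4 old EOD mice were below all old AL mice. The age difference was 0.15 in AL mice and -0.33 in EOD mice (95% interval -0.78 to 0.12, adjusted p = 0.975), and neither passed the test.

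**Figure D3:**
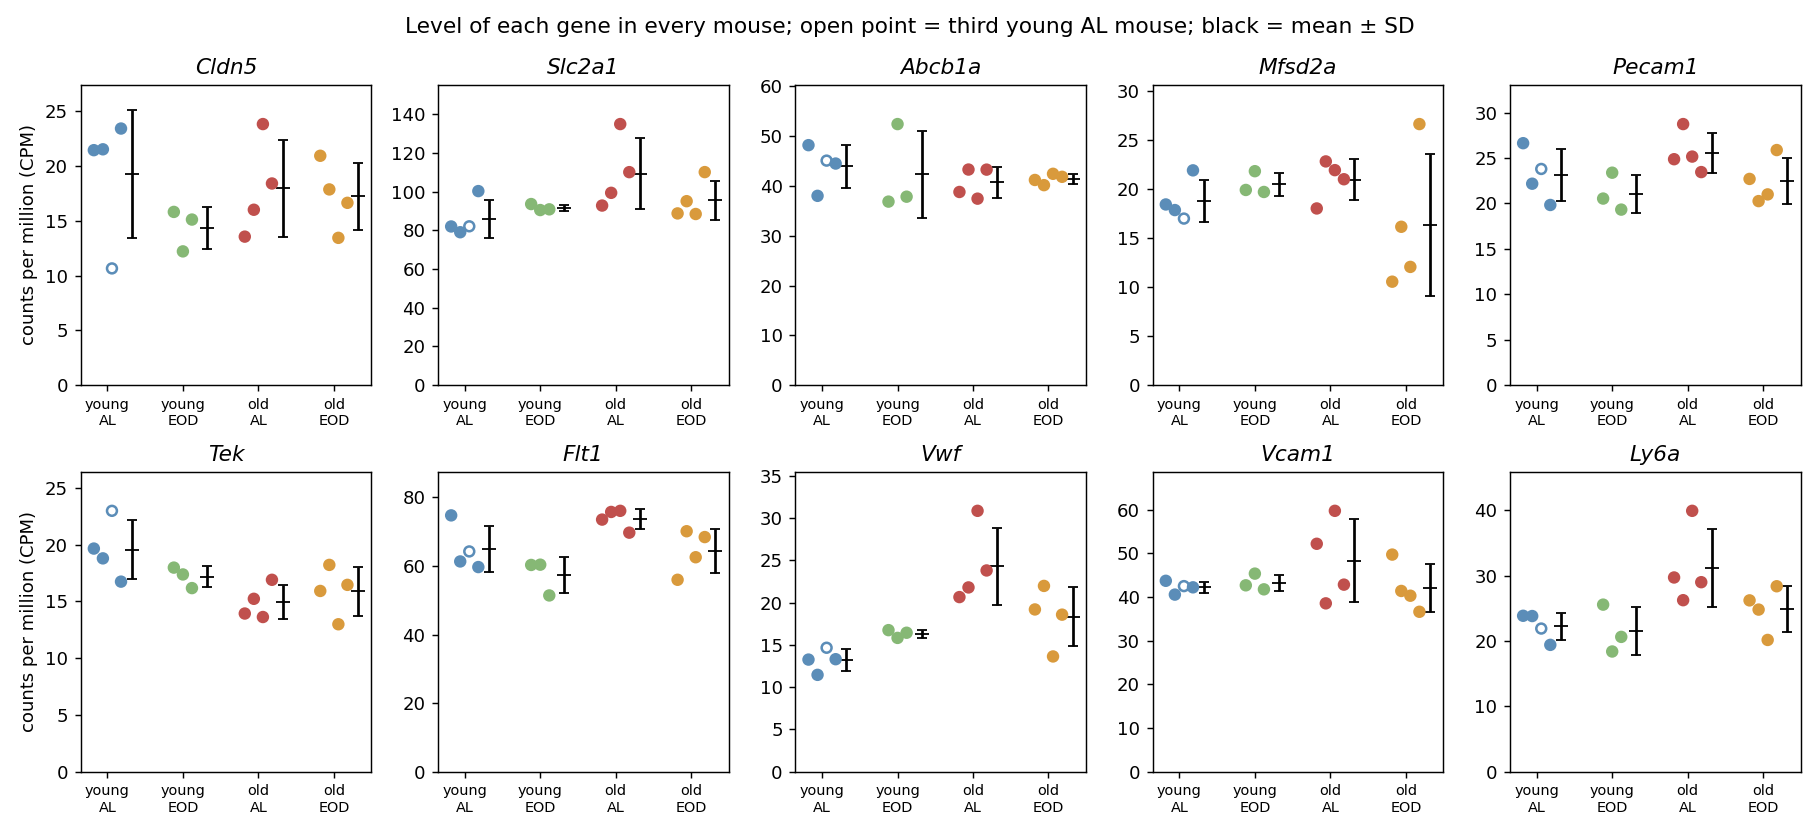
CPM of each of the 10 genes in every mouse by group, with the mean and SD in black and the third young AL mouse as an open point. Old AL mice lay above young AL mice for Vwf (20.6 to 30.8 against 11.5 to 14.7 CPM) and Ly6a. The open point was the lowest for Cldn5, and old EOD mice scattered from 10.6 to 26.6 CPM for Mfsd2a.

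The receptors Tek and Flt1 went in different directions with age in AL mice, and neither passed the test. Tek (chromosome 4, 94739289 to 94874976, plus strand) was measured at 19.6, 18.8, 23.0 and 16.7 CPM in young AL and at 13.9, 15.2, 13.6 and 16.9 CPM in old AL mice. The groups overlapped by 1 mouse on each side. The log2 difference was -0.38 (SE 0.129, unadjusted p = 0.00766, adjusted p = 0.277, edgeR), and -0.28 (adjusted p = 0.626) without the third young AL mouse, which had the highest value of all mice. Young EOD mice had 18, 17.4 and 16.2 CPM and old EOD mice 15.9, 18.2, 13 and 16.5 CPM, a difference of -0.12 (95% interval -0.41 to 0.18).

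Flt1 (chromosome 5, 147561604 to 147726011, minus strand) was measured at 74.7, 61.3, 64.2 and 59.7 CPM in young AL and at 73.5, 75.7, 76.0 and 69.7 CPM in old AL mice. Except for the first young AL mouse, the young AL mice were below the old AL mice. Young EOD mice had 60.3, 60.3 and 51.4 CPM and old EOD mice 55.9, 70.1, 62.5 and 68.4 CPM. Averaged over diets the age difference was 0.17 (SE 0.0674, unadjusted p = 0.0181, adjusted p = 0.284, edgeR). It was of similar size in AL mice, 0.18 (95% interval -0.01 to 0.37), and in EOD mice, 0.16 (95% interval -0.04 to 0.37). The interval of the difference between both ran from -0.30 to 0.26.

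Among the adhesion genes, Pecam1 (chromosome 11, 106654217 to 106750628, minus strand) had group means of 23.1 ± 2.86 CPM in young AL, 21.1 ± 2.09 in young EOD, 25.6 ± 2.25 in old AL and 22.5 ± 2.50 CPM in old EOD mice. Vcam1 (chromosome 3, 116110020 to 116129688, minus strand) lay between 40.6 and 45.4 CPM in all 7 young mice. In old AL mice it spread over 52.2, 38.6, 59.8 and 42.9 CPM, and in old EOD mice over 49.8, 41.4, 40.3 and 36.6 CPM, so that old mice held both the lowest and the highest values. The age difference in AL mice was 0.15 for Pecam1 (95% interval -0.09 to 0.39) and 0.18 for Vcam1 (95% interval -0.06 to 0.43). Without the third old AL mouse that of Vcam1 was 0.08.

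Seen together, 7 of 10 genes had a positive log2 difference with age in AL mice, with a median of 0.17, where 47.6% of all genes were positive with a median of -0.01. In EOD mice 6 of 10 were positive with a median of 0.08. In old mice 2 of 10 genes were higher in EOD than in AL mice, Abcb1a and Tek, with a median of -0.19 against 0.00 over all genes. The age comparison in AL mice and the diet comparison in old mice share the old AL mice. The summed level of all 10 genes ran from 334 to 372 CPM in young AL, from 329 to 358 in young EOD, from 378 to 463 in old AL and from 327 to 389 CPM in old EOD mice. The third old AL mouse was the highest in this sum.

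None of the 10 genes passed the threshold for diet at either age. In young mice 0 of 10 genes were called by edgeR and by DESeq2, where 0% of all genes were called by edgeR, and 0 of 10 had an unadjusted p under 0.05, against 657 of all 15864 genes. On 14 mice 2 of 10 had one, Cldn5 and Vwf (unadjusted p = 0.0391), against 629 of 15687 genes. In old mice 0 of 10 genes were called by both tools, against 0% of all genes by edgeR, and 3 of 10 had an unadjusted p under 0.05, against 409 of all genes. These were Vwf, Ly6a with -0.31 (unadjusted p = 0.0312) and Flt1 with -0.20 (unadjusted p = 0.0404), all lower in old EOD mice. For the interaction of age and diet, 0 of 10 genes were called by both tools and 1, Vwf, had an unadjusted p under 0.05, against 362 of all genes. On 14 mice Vwf and Cldn5 (unadjusted p = 0.0233) had one, against 407 of 15687 genes.

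**Figure D4:**
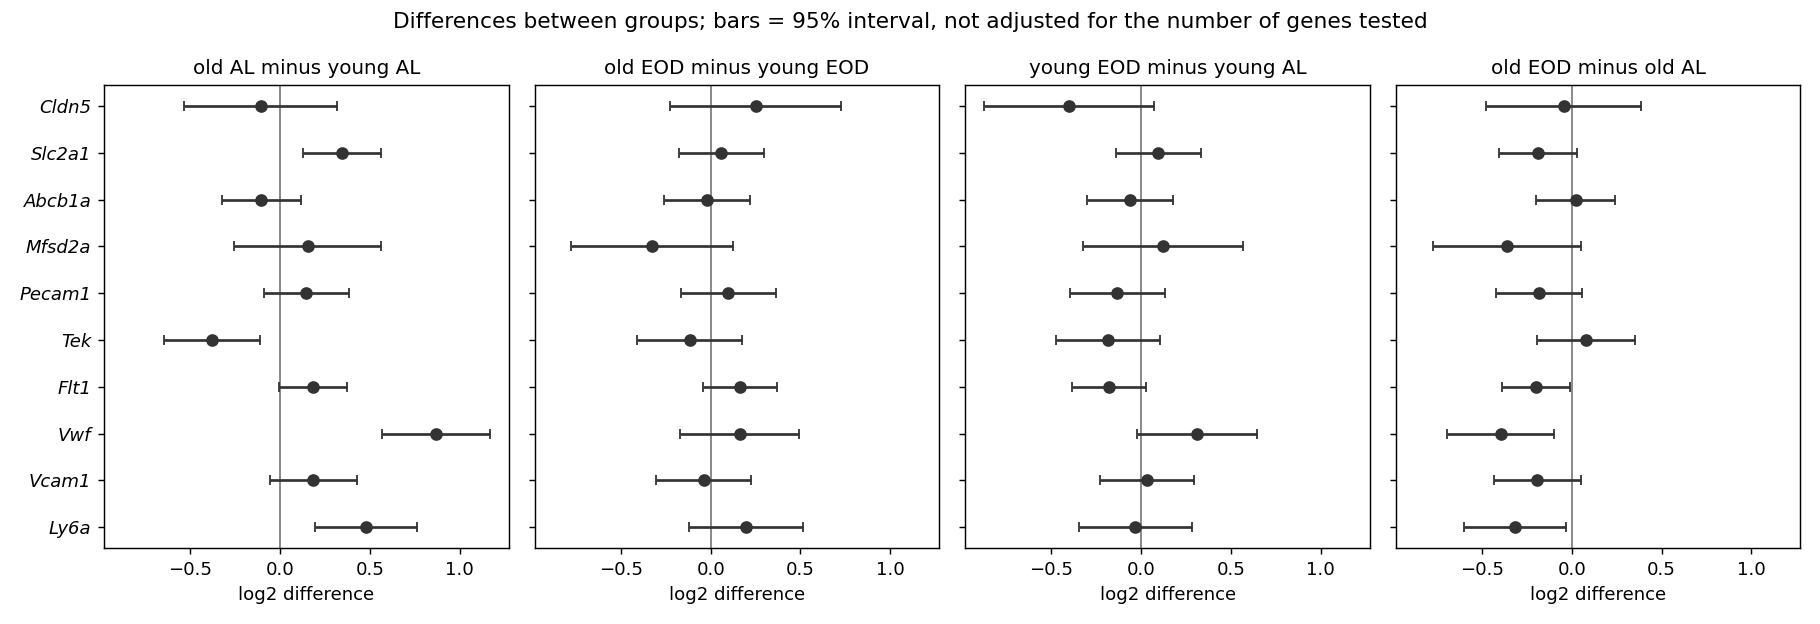
Log2 difference of each gene with its 95% interval for age in AL mice, age in EOD mice, diet in young mice and diet in old mice. The interval of Vwf ran from 0.57 to 1.17 for age in AL mice and from -0.17 to 0.49 for age in EOD mice.

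The 10 genes did not vary as 1 block between mice of the same group. Among 14 mice, the deviations from the group mean (log2 CPM) correlated with a median r of 0.22 over the 45 pairs of genes, and 31 of 45 pairs were positive. The highest r was 0.83 between Cldn5 and Vwf, and the lowest -0.55 between Abcb1a and Ly6a. Vwf went with Cldn5, Slc2a1 (0.66) and Ly6a (0.63), whereas Abcb1a and Vcam1 had a median r of -0.07 and -0.10 with the others. With all 15 mice the r of Cldn5 and Vwf was 0.34, so that its size rested on leaving out the third young AL mouse. The median was then 0.18 and the highest r was 0.63, between Slc2a1 and Mfsd2a. The values share the libraries and their depth, and the third old AL mouse was high for Cldn5, Slc2a1, Vwf and Ly6a at once.

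**Figure D5:**
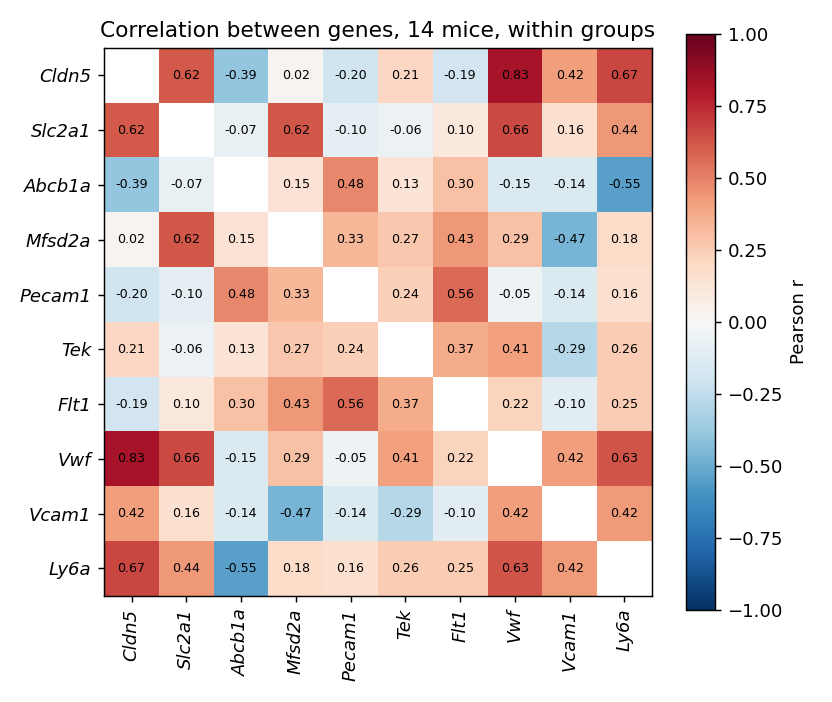
Pearson r between the genes over 14 mice, computed on deviations from the group means (log2 CPM). The strongest positive value was 0.83 for Cldn5 and Vwf, which was 0.34 with all 15 mice, and the strongest negative value -0.55 for Abcb1a and Ly6a.

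The genes most like the 10 genes across these 14 mice were Nup43 with a mean r of 0.46, 2210411M09Rik and Adamts15 with 0.45 each, Hdhd5 with 0.45, and Cxcl12 and Traf7 with 0.44 each. Iba57 had 0.44, and Rab11fip4, Myo1h and Phka2 had 0.43 each. With all 15 mice, 4 of these 10 were still among the 10 most alike, namely 2210411M09Rik, Phka2, Iba57 and Traf7. The genes named first are the highest of 14124 genes, whose median was -0.00. How high such a maximum runs by chance was not tested. Of the 10 genes themselves Vwf came highest, at rank 114, by its mean r of 0.36 with the other 9.

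Other genes of the barrier and of endothelial cells gave the surroundings of these values. Of 14 barrier transporters and receptors, 1 was called averaged over diets, where 2.3% of all genes were called. Tfrc, the transferrin receptor that carries iron into the brain, fell by 0.54 on the log2 scale averaged over diets (adjusted p = 0.0372, edgeR; 0.0587 on 14 mice). In AL mice its level was 230 ± 72.1 CPM in young and 145 ± 26.1 CPM in old mice (adjusted p = 0.104). On 14 mice Slc7a1, a carrier of cationic amino acids that is named after its values were seen, was also called averaged over diets, with -0.27 (adjusted p = 0.0147, edgeR). In that fit 2.56% of all genes were called averaged over diets.

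Of 16 further endothelial genes, 1 was called, both in AL mice and averaged over diets, where 1.09% and 2.3% of all genes were called. Itm2a, a membrane protein gene expressed in brain endothelium, fell by 0.45 on the log2 scale in AL mice (adjusted p = 0.0360, edgeR) and by 0.34 averaged over diets (adjusted p = 0.0196). Both calls held on 14 mice, with adjusted p-values of 0.0581 and 0.0241. Among 10 receptors of endothelial growth and Wnt signals, 9 ligands of these receptors and 10 endothelial transcription factors, none was called for age in AL mice or averaged over diets. Their medians in AL mice were 0.12, 0.03 and 0.12 on the log2 scale.

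Of 18 genes of endothelial activation and coagulation, 14 could be tested. Of these, 1 was called, both in AL mice and averaged over diets, where 1.09% and 2.3% of all genes were called. The called gene was Lcn2, an iron-binding protein of neutrophils and of inflamed cells, which is named here after its values were seen. Its counts were 0 to 4 in each of the 7 young mice. Old AL mice had 8, 5, 64 and 106 counts and old EOD mice 15, 5, 1 and 9 counts, so that the third and the fourth old AL mouse made most of its log2 difference of 4.53 in AL mice (adjusted p = 0.00929, edgeR). In AL mice 6 of the 14 had an unadjusted p under 0.05 in edgeR, against 1511 of all 15864 genes. On 14 mice Icam1, a leukocyte adhesion receptor also named after its values were seen, was called averaged over diets, with 0.71 (adjusted p = 0.0961, edgeR). In that fit 2.56% of all genes were called averaged over diets. Sele, Selp, Procr and Ly6c2 had too few counts to be tested.

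Markers of other cells were read beside these values, since whole brain holds all of them. Over all genes, 1.09% were called for age in AL mice and 2.3% averaged over diets. Of 13 pericyte and smooth muscle genes tested, of 14 listed, and of 8 fibroblast and meningeal genes, none was called with age in AL mice or averaged over diets. The same held for 7 astrocyte endfoot, 6 of 7 border macrophage, 3 of 5 platelet, 8 choroid plexus, 5 ependymal and 6 neuronal genes. The microglial receptor genes Cx3cr1 and Csf1r were higher averaged over diets, by 0.23 (adjusted p = 0.0728, edgeR) and 0.20 (adjusted p = 0.0605) on the log2 scale. Mbp, the myelin basic protein gene, was higher by 0.39 in AL mice (adjusted p = 0.0515), a call lost on 14 mice (adjusted p = 0.156). Averaged over diets it was higher by 0.29 (adjusted p = 0.0346, edgeR; 0.0423 on 14 mice), and it was the 1 gene called of 6 oligodendrocyte genes. The platelet genes, which matter for Vwf since platelets carry it too, summed to 2.53 to 4.03 CPM in young AL and to 2.49 to 3.97 CPM in old AL mice.

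Of the 9 blood genes, 6 were tested, and 1 was called averaged over diets, where 2.3% of all genes were called. This was the neutrophil gene S100a9 (adjusted p = 0.0735, edgeR), a call lost on 14 mice (adjusted p = 0.125). It is named after its values were seen. The third old AL mouse had 49 S100a9 counts, against 0 to 16 in the other mice. The summed blood genes ran from 28.0 to 50.9 CPM in young AL, from 44.6 to 63.4 CPM in old AL and from 51.7 to 102.6 CPM in old EOD mice. Of the pituitary genes, 3 of 6 were tested. Gh and Prl were called in AL mice, where 1.09% of all genes were called. The fourth old AL mouse held a Gh level of 888 CPM. On 14 mice the call of Gh held (adjusted p = 0.0586, edgeR) and that of Prl did not (adjusted p = 0.177). The part of these other cells in the Vwf difference was not tested.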

How the data were processed

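The authors trimmed 50-base single-end reads and mapped them with STAR to GRCm38. They counted reads per gene of Ensembl release 79 by featureCounts 1.5.0-p1 (mapping quality of at least 5, primary alignments, reverse strand), and deposited raw counts per gene for each of the 15 mice. Everything after the counts was computed here. Identifiers were matched to symbols, and groups came from the labels. The counts entered edgeR 4.0.16 under R 4.3.3 (filterByExpr, TMM, quasi-likelihood test, FDR under 0.1 over 15864 genes) in 1 fit of the 4 group means. The standard error of a log2 fold change was its size over the root of F. CPM used TMM library sizes, and correlations were taken on log2 CPM (prior count 2).

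The genes and lists were chosen with earlier results of these data known. From each list, up to 4 genes past the threshold with the largest change and an average log2 CPM of at least 1 could be named, or the 2 with the smallest p. Alternatives included DESeq2 1.42.0, limma 3.58.1 (voom), other filters and size factors, lane, a replicate block and leaving out each mouse. The test was run on simulated counts first. All 21 pairs of mice of the same group differed beyond counting noise (chi-square per degree of freedom 3.01 to 16.6). No protein sequences were used here. The list of further junction genes and part of the microglial list are not reported here.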

Additional observations from a re-analysis of the deposited data

Results flagged for a closer look

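In 30 groups of 4 mice (10 genes in 3 groups), a mouse stood apart from the rest of its group in 2 cases by Dixon's test, where chance alone flags about 1 in 20. Cldn5 in the third young AL mouse was 10.7 CPM against 21.5 CPM in the nearest mouse, a gap of 0.845 of the group's range. Slc2a1 in the fourth young AL mouse was 100.2 CPM against 82.0 CPM in the nearest mouse, a gap of 0.856 of the range. The first of these is the library that also differed in detected genes.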

How the results depend on the processing

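Vwf was called for age in AL mice and averaged over diets under each alternative run, with log2 differences of 0.75 to 0.94 and 0.45 to 0.58 when each mouse was left out in turn. The number of the 10 genes called for age in AL mice was 1, and 3 when every gene with a count was tested (444 of all 26269 genes), 2 with DESeq2 (244 of 17903), and 1 to 2 without each mouse in turn. Averaged over diets it was likewise 1, and 3 (653 of all genes), 2 (475) and 1 to 2. Slc2a1 and Ly6a made up the further calls. For the age difference in EOD mice, both diet differences and the interaction, 0 genes were called under each alternative. Leaving out single mice turned the sign of Cldn5 in AL mice (-0.32 to 0.0138), of Cldn5 averaged over diets (-0.0314 to 0.13) and of Abcb1a averaged over diets (-0.11 to 0.0218), none of them called; the cause was not tested. Deviations of same-numbered mice had a mean r of -0.03 over 21 pairs, against 0.009 over 63 pairs with different numbers. No pairing by replicate number was thus visible, which does not exclude one in the design. With the replicate number as a block, 1 gene was called in AL mice (Vwf, 0.87, adjusted p = 0.00932, edgeR), 1 averaged over diets (Vwf, 0.52) and 0 in the other comparisons. Counts of 71 to 1309 per gene and mouse, with 3 or 4 mice a group, limit what could be detected.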
